A study of Mus musculus with 21 samples.

Results

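The HoxD cluster genes were described in mouse colon across 21 RNA sequencing libraries. The members were the 9 rows of the count table with the symbols Hoxd1, Hoxd3, Hoxd4, Hoxd8, Hoxd9, Hoxd10, Hoxd11, Hoxd12 and Hoxd13, of 24062 genes in all, and they were chosen by their measured counts per library, which had been seen to differ between tumour replicates. Their levels are therefore given as a description of each library. All mice were C57BL/6, and the libraries form 7 groups of 3. The groups were wild-type male normal colon, wild-type male tumour, App knock-in male normal colon, App knock-in male tumour, wild-type female normal colon, wild-type female tumour and App knock-in female normal colon. The knock-in is App NL-G-F, in which the gene for amyloid precursor protein bears Alzheimer-linked changes. Mice with tumours had received AOM/DSS, that is, azoxymethane as the carcinogen and dextran sulfate sodium to injure the lining of the colon. The labels give the normal libraries as not treated, whereas the text of the series speaks of tissue beside tumours or of colon without tumours, so they are called normal colon here. A knock-in female tumour group was not analysed here, and the age of the mice is not given in the sources used here. Nothing in the labels says that libraries of a group came from separate animals, so p-values measure only the spread between these libraries.

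Hox genes encode homeodomain transcription factors that give cells along the body axis their regional identity. In each cluster the genes are switched on in the order in which they lie on the chromosome, from the anterior genes at the 3′ end to the posterior genes at the 5′ end, under the control of Polycomb and trithorax proteins and of distant enhancers. The posterior HoxD genes pattern the hindgut, the limbs and the genital tubercle, and adult colon keeps their expression as a positional record.

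On mouse chromosome 2, in GENCODE annotation of GRCm38, the build the submitters' processing notes name as mm10, the members lie on the plus strand. Hoxd13 (ENSMUSG00000001819) spans chr2:74668310-74671599, and Hoxd12 and Hoxd11 start 6.7 and 11.2 kb further on. Hoxd10 starts at 23.6 kb, Hoxd9 at 29.4 kb and Hoxd8 at 36.3 kb from the start of Hoxd13. Evx2, a homeobox gene next to the cluster, is on the minus strand with its start 8.8 kb on the other side of Hoxd13. The annotated spans of Hoxd3 and Hoxd4 both begin at 43.6 kb and overlap on the same strand. The antisense gene Hoxd3os1 overlaps the annotated spans of Hoxd8, Hoxd3 and Hoxd4. Counts of Hoxd3, Hoxd4 and Hoxd8 are uncertain for that reason, since the strand setting and the handling of shared reads are not given in the sources used here.

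The 250 bases before the RefSeq start of 5 members (RefSeq, GRCm38.p6) are shown because Hoxd10 to Hoxd13 were low together in the same libraries and Hoxd8 was less so. Capitals mark TTTAT, the core bound by caudal and posterior Hox proteins, or its reverse complement; for Hoxd11 the first of its listed starts is used.
Hoxd13, chr2:74667975-74668224, plus strand: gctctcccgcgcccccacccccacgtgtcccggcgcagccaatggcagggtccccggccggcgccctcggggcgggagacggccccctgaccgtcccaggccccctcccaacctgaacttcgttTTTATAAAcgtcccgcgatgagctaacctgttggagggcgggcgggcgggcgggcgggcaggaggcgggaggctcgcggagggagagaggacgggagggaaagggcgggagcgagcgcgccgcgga
Hoxd12, chr2:74674763-74675012, plus strand: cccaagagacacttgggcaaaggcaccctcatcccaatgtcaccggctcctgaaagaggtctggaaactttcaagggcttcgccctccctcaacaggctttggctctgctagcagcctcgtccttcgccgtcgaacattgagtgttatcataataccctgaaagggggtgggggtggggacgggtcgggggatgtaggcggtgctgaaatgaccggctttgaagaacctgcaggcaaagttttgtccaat
Hoxd11, chr2:74679308-74679557, plus strand: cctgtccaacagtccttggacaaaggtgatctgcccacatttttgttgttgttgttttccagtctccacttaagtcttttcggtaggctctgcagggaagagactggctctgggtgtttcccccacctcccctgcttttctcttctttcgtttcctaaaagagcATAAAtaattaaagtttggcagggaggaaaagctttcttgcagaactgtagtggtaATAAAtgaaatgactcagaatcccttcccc
Hoxd10, chr2:74691641-74691890, plus strand: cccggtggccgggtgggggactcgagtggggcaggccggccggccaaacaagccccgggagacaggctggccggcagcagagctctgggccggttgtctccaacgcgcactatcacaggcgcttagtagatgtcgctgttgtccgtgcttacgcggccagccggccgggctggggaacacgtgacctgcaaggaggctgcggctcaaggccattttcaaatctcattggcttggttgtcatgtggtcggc
Hoxd8, chr2:74704365-74704614, plus strand: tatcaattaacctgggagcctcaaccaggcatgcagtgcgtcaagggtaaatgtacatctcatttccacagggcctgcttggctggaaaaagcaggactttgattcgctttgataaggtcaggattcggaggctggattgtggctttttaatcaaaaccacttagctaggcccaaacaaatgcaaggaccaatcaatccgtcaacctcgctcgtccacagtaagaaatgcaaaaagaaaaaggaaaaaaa
All 9 members were matched in the RefSeq table. In the Hoxd13 window 2 overlapping matches of TTTAT form a single run that also holds TATAAA on both strands, and Hoxd11 has 2 matches. Hoxd12, Hoxd10 and Hoxd8 have 0. Searched on both strands, TTTAT occurs in 37.3% of 32851 windows of the same length, TATAAA in 12.4%, the GC box GGGCGG in 32.7%, CCAAT in 33.8% and the PBX-HOX composite TGATNNAT in 7.68%. The GC box occurs 7 times in the Hoxd13 window and 0 times in the other 4 printed here. Members differed in CpG content, with 31 CpG in the window of Hoxd13, 20 in Hoxd10, 10 in Hoxd12, 6 in Hoxd8 and 2 in Hoxd11, against a median of 6 over all windows. At its other listed start Hoxd11 has 20 CpG, 1 GC box, 1 PBX-HOX match and 0 TTTAT, so its values depend on the start that is used. The window of Hoxd9, which overlaps an annotated exon and is not printed, has 13 CpG, 1 GC box and 0 matches of the other motifs. No single one of these motifs is in all 5 windows from Hoxd13 to Hoxd9. A match is only a description of the letters.

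Library totals ran from 3414123 to 26174008 counts, and levels are given as CPM, counts scaled to library size with TMM factors. The labelled tissue was checked against 7 epithelial markers, none of which was at 0 in any library, with summed levels of 4935 to 9042 CPM. Smooth muscle markers, 7 genes, summed to 1971 to 9653 CPM in normal colon and to 173 to 993 CPM in tumours. Skeletal muscle markers, 4 genes, reached 2493 CPM in App knock-in male tumour replicate 3 and at most 28.0 CPM elsewhere, and that library was also the only one above 2 counts for Hoxc10, with 35. In bulk tissue, fewer cells of a type and less RNA per cell cannot be told apart. Of the 9 members 8 passed the filter on low counts, and Hoxd1, with 4 counts in all libraries together, did not.

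Colon expressed the posterior end of the cluster far above the anterior end. Over the 12 normal libraries and per kilobase of annotated exon, Hoxd13 had a level of 57.8 CPM per kb ± 10.5 (SD, n = 12), and Hoxd11 had 46.4 ± 12.4. Next came Hoxd10 with 14.2 CPM per kb ± 3.95, Hoxd12 with 4.56 ± 2.22 and Hoxd9 with 2.59 ± 0.527. Hoxd8 had a level of 0.901 CPM per kb ± 0.398, Hoxd4 of 0.701 ± 0.317 and Hoxd3 of 0.239 ± 0.0961. In that order, the ranges of mean ± SD overlapped for the neighbours Hoxd13 and Hoxd11, Hoxd12 and Hoxd9, and Hoxd8 and Hoxd4. They did not overlap for Hoxd11 and Hoxd10, Hoxd10 and Hoxd12, Hoxd9 and Hoxd8, or Hoxd4 and Hoxd3. These ranges include spread between libraries that the genes share. Within each of the 12 normal libraries Hoxd13 was above Hoxd11 per kilobase. Hoxd12 was below Hoxd9 only in App knock-in male replicate 3 and wild-type female replicate 2. Hoxd8 was below Hoxd4 only in those libraries and in wild-type female replicate 1. The order of levels does not follow the order on the chromosome, because Hoxd12 sits between Hoxd13 and Hoxd11.

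Hoxd13, the last gene of the cluster and one required for hindgut and digit patterning, had the highest CPM of the members in every library. In wild-type males its level was 146, 92.9 and 162 CPM in normal colon and 70.3, 141 and 143 CPM in tumours. In App knock-in males it was 147, 145 and 99.3 CPM in normal colon and 5.79, 178 and 133 CPM in tumours. For wild-type females it was 162, 118 and 165 CPM in normal colon and 2.58, 162 and 56.0 CPM in tumours, each in the order of the replicates. The 3 App knock-in female normal libraries had 163, 155 and 168 CPM. Replicate 1 of the App knock-in male tumours and replicate 1 of the wild-type female tumours thus stood far below every other library, while 4 of the other 7 tumour libraries lay within the 92.9 to 168 CPM of normal colon, 2 below it at 56.0 and 70.3 CPM and 1 above it at 178 CPM.

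**Figure D1:**
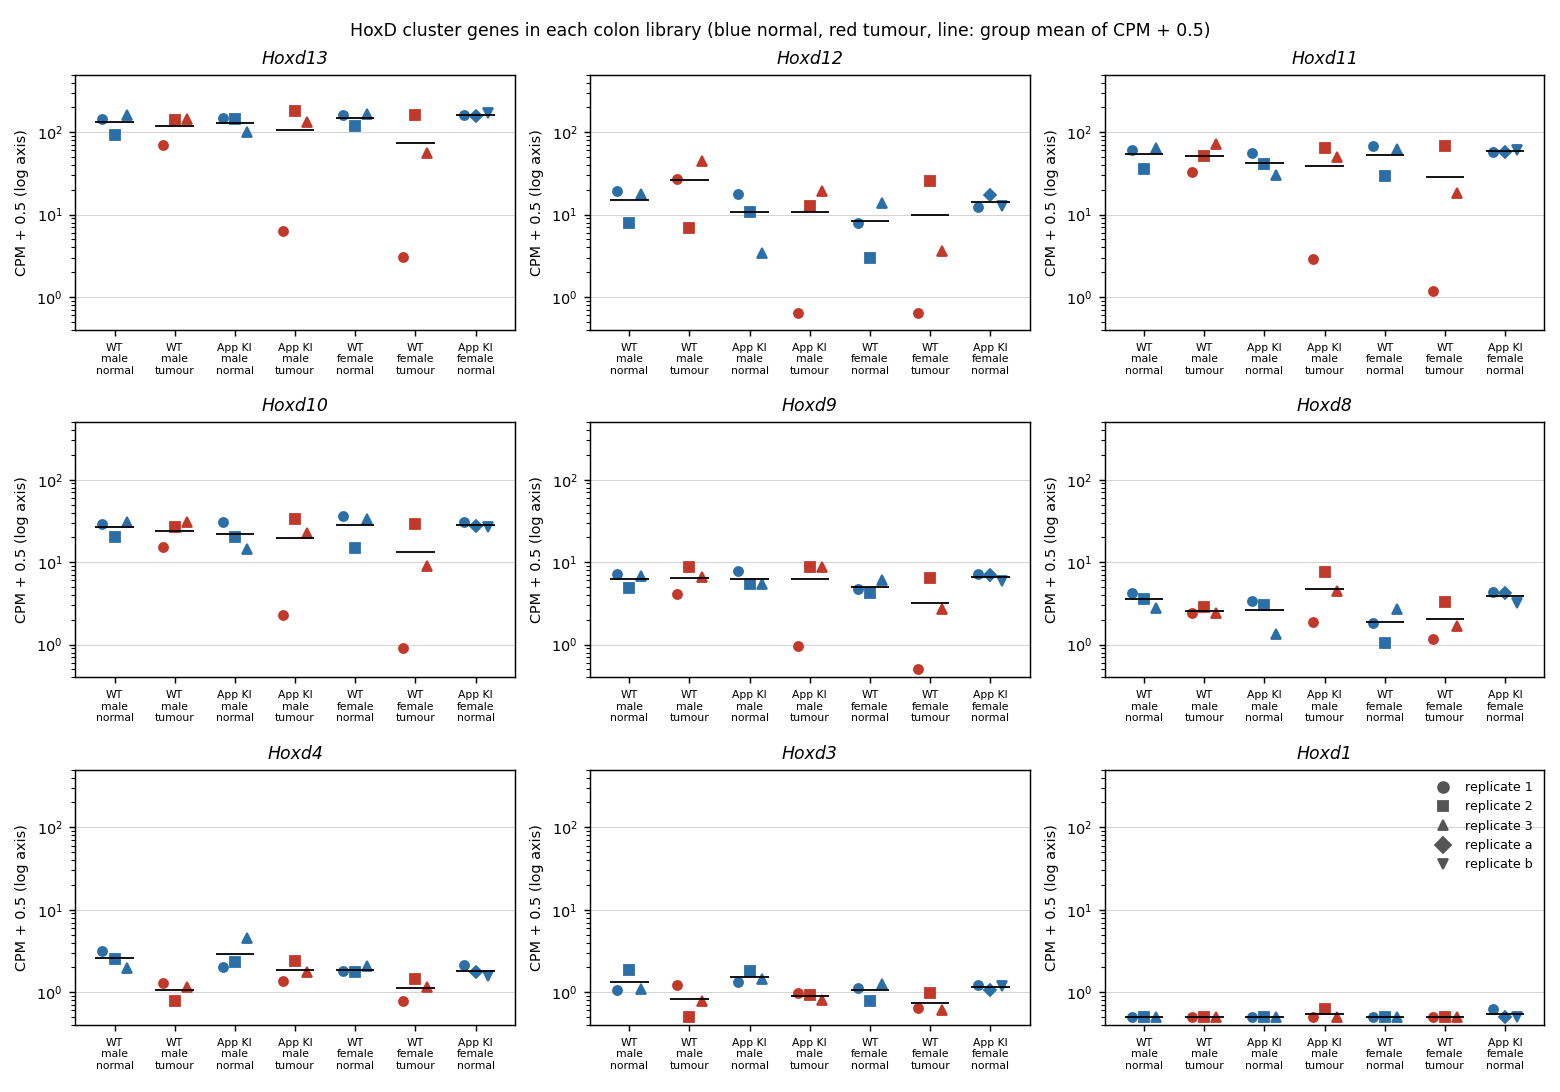
Each panel plots 1 HoxD gene as CPM + 0.5 on a log axis against the 7 groups, with 1 point for each library (blue normal colon, red tumour, marker shape for the replicate) and a line at the group mean; WT is wild-type and App KI the knock-in. Hoxd13 lies between 56.0 and 178 CPM in 19 libraries and at 5.79 and 2.58 CPM in the first replicates of App knock-in male and wild-type female tumours, and Hoxd9 to Hoxd12 are low in the same libraries.

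Hoxd11, a posterior gene known from kidney and limb development, followed the same pattern. Its level was 60.3, 35.0 and 64.1 CPM in normal colon of wild-type males and 32.2, 51.5 and 71.2 CPM in their tumours. In App knock-in males it was 55.8, 40.1 and 30.1 CPM in normal colon and 2.38, 64.4 and 49.5 CPM in tumours. For wild-type females it was 67.2, 29.3 and 62.1 CPM in normal colon and 0.679, 67.0 and 17.8 CPM in tumours. The 2 lowest libraries were those lowest in Hoxd13, and wild-type female tumour replicate 3 was next. App knock-in female normal colon had 57.3, 56.3 and 60.4 CPM, the narrowest range of the 7 groups.

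Hoxd10, which takes part in the patterning of the hindlimb and its motor neurons, had about the same relative spread. Normal colon ranged from 14.0 to 36.0 CPM over its 12 libraries. Tumours of wild-type males had 14.6, 25.9 and 30.0 CPM. Those of App knock-in males had 1.77, 32.8 and 22.3 CPM, and those of wild-type females 0.407, 28.9 and 8.59 CPM. The first replicate was again the low one in both of the last groups.

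Hoxd9, the gene at the border between the posterior and the central part of the cluster, ranged from 3.76 to 7.29 CPM in normal colon. Its level in tumours was 3.67, 8.15 and 6.08 CPM in wild-type males and 0.476, 8.34 and 8.32 CPM in App knock-in males. In wild-type female tumours it was 0, 5.97 and 2.17 CPM. No count of Hoxd9 was found in wild-type female tumour replicate 1, where a count of 0 allows up to 0.407 CPM on the TMM scale (3 counts), for counting error only.

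Hoxd12, which lies between Hoxd13 and Hoxd11 and shares limb enhancers with them, varied most among the posterior members in the libraries that did not stand apart. Wild-type male normal colon had 19.1, 7.34 and 17.3 CPM and wild-type male tumours 26.8, 6.4 and 44.7 CPM. App knock-in males had 17.5, 10.3 and 2.94 CPM in normal colon and 0.136, 12.1 and 19.0 CPM in tumours. Wild-type females had 7.48, 2.51 and 13.5 CPM in normal colon and 0.136, 25.0 and 3.15 CPM in tumours. Tumours therefore held both the highest and the lowest Hoxd12 levels of the series. App knock-in female normal colon had 11.8, 16.7 and 12.2 CPM.

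Counts of Hoxd12 for each 100 counts of Hoxd13 make that variation visible within a library. The ratio was 38.1, 4.55 and 31.2 in wild-type male tumours and 13, 7.9 and 10.7 in wild-type male normal colon. Elsewhere it ran from 2.13 in wild-type female normal colon replicate 2 to 15.5 in wild-type female tumour replicate 2. A ratio above 30 was seen in replicates 1 and 3 of the wild-type male tumours and in no other library, and their remaining tumour library did not share it. In the 2 libraries low in Hoxd13 the ratio was 2.35 and 5.26, from 2 and 1 counts of Hoxd12.

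**Figure D2:**
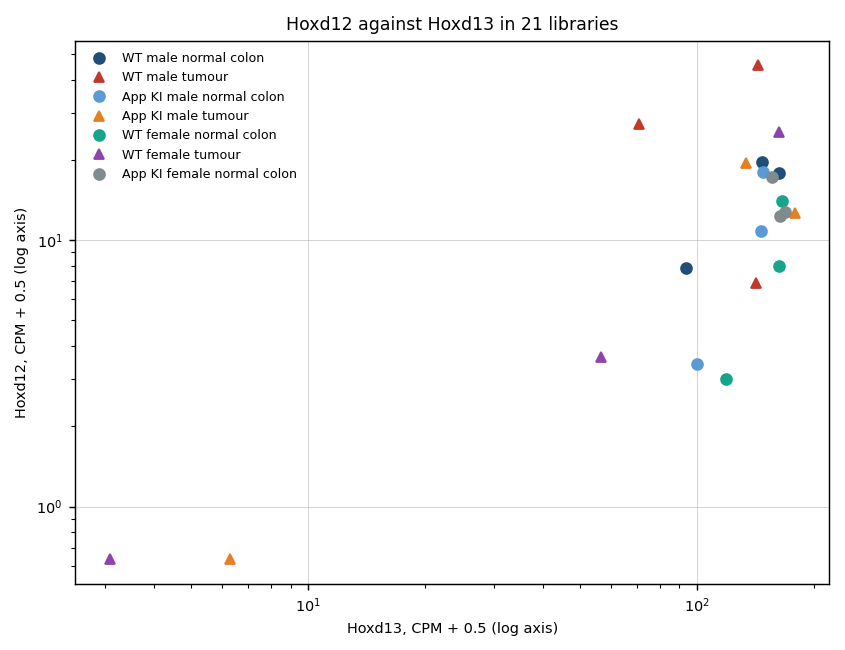
Hoxd12 is plotted against Hoxd13 as CPM + 0.5 on log axes, with 1 point for each of 21 libraries (circles normal colon, triangles tumours, colour for the group). The 2 libraries at the lower left are the first replicates of App knock-in male and wild-type female tumours, both with 0.136 CPM of Hoxd12, and the wild-type male tumours with 44.7 and 26.8 CPM of Hoxd12 lie highest.

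The fall in App knock-in male tumour replicate 1 covered the 5 genes from Hoxd13 to Hoxd9. Against replicates 2 and 3 of its group, Hoxd13 was lower by a factor of 30.7 (95% counting interval 24.8 to 38.6) and 23.0 (18.5 to 29.0). Hoxd12 was lower by a factor of 88.7 (24.2 to 737) and 139 (38.1 to 1160), from 2 counts. Hoxd11 was lower by 27.0 and 20.8, Hoxd10 by 18.6 and 12.6, and Hoxd9 by 17.5 and 17.5 times. Hoxd8 differed less, by a factor of 5.26 (3.26 to 8.91) and 2.95 (1.69 to 5.31). The counting intervals of Hoxd8 lay below those of Hoxd13, Hoxd12, Hoxd11 and Hoxd10, and below that of Hoxd9 against replicate 3 only.

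Wild-type female tumour replicate 1 was low in the same 5 genes, with fewer counts. Against replicates 2 and 3, Hoxd13, with 19 counts, was lower by a factor of 62.7 (40.0 to 104) and 21.7 (13.8 to 36.3). Hoxd12, with 1 count, was lower by 184 (32.7 to 7310) and 23.2 (3.85 to 948). Hoxd11, with 5 counts, was lower by 98.7 (42.0 to 305) and 26.3 (11 to 81.9). Hoxd10, with 3 counts, was lower by 70.9 (24.0 to 346) and 21.1 (6.96 to 104). Replicate 3 of this group was itself lower than replicate 2, which is why the factors against it are smaller. Hoxd9, with 0 counts, was at least 14.6-fold and at least 5.34-fold lower, taking 3 counts in this library as the floor. For Hoxd8, with 5 counts, the factors were 4.13 (1.55 to 13.9) and 1.76 (0.564 to 6.47).

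**Figure D3:**
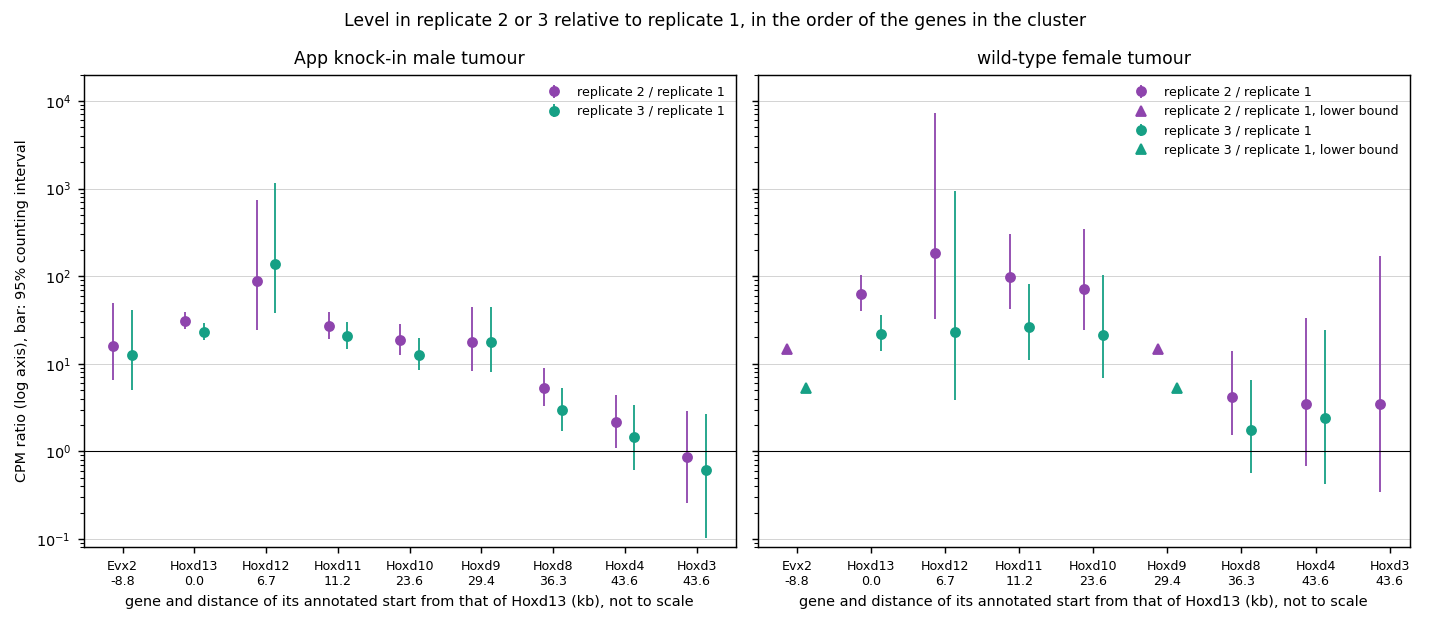
The ratio of CPM in replicate 2 or 3 to that in replicate 1 is plotted on a log axis for the App knock-in male and wild-type female tumours, with the genes in their order in the cluster and 95% counting intervals; triangles are lower bounds where replicate 1 had 0 counts. Ratios are between 12.6 and 184 from Hoxd13 to Hoxd10, and between 1.76 and 5.26 at Hoxd8.

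The low level extended past the cluster's 5′ end to Evx2 and not to the genes further out. Evx2 had 5 counts in App knock-in male tumour replicate 1, lower by a factor of 15.8 (6.54 to 49.9) and 12.7 (5.03 to 40.9) than in the other replicates. It had 0 counts in wild-type female tumour replicate 1, at least 14.9-fold and at least 5.34-fold lower. Lnp, which encodes the endoplasmic reticulum protein lunapark and lies on the far side of Evx2, had 49.5, 67.4 and 55.8 CPM in App knock-in male tumours and 36.0, 57.8 and 54.7 CPM in wild-type female tumours. Mtx2, a mitochondrial import gene on the other flank of the cluster, had 32.7, 33.9 and 35.1 CPM and 39.1, 28.9 and 31.4 CPM in the same groups. Neither flanking gene thus showed a gap of the size seen at Evx2 and Hoxd13.

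The posterior genes of the other clusters did not share the gap. Hoxb13, the posterior gene of HoxB, had 90.9, 97.7 and 101 CPM in App knock-in male tumours and 109, 91.4 and 89.6 CPM in wild-type female tumours. Hoxa13, the HoxA counterpart of Hoxd13, had 17.6, 19.2 and 15.8 CPM and 11.7, 19.7 and 15.0 CPM in the same groups. Hoxa9, a HoxA gene active in stem and progenitor cells, had 65.6, 64.6 and 61.7 CPM and 47.7, 71.2 and 76.1 CPM. Over Hoxa9, Hoxa10, Hoxa11, Hoxa13, Hoxb9 and Hoxb13, the first replicate was lower than another of its group by at most a factor of 1.97, at Hoxa11 in wild-type female tumours.

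**Figure D4:**
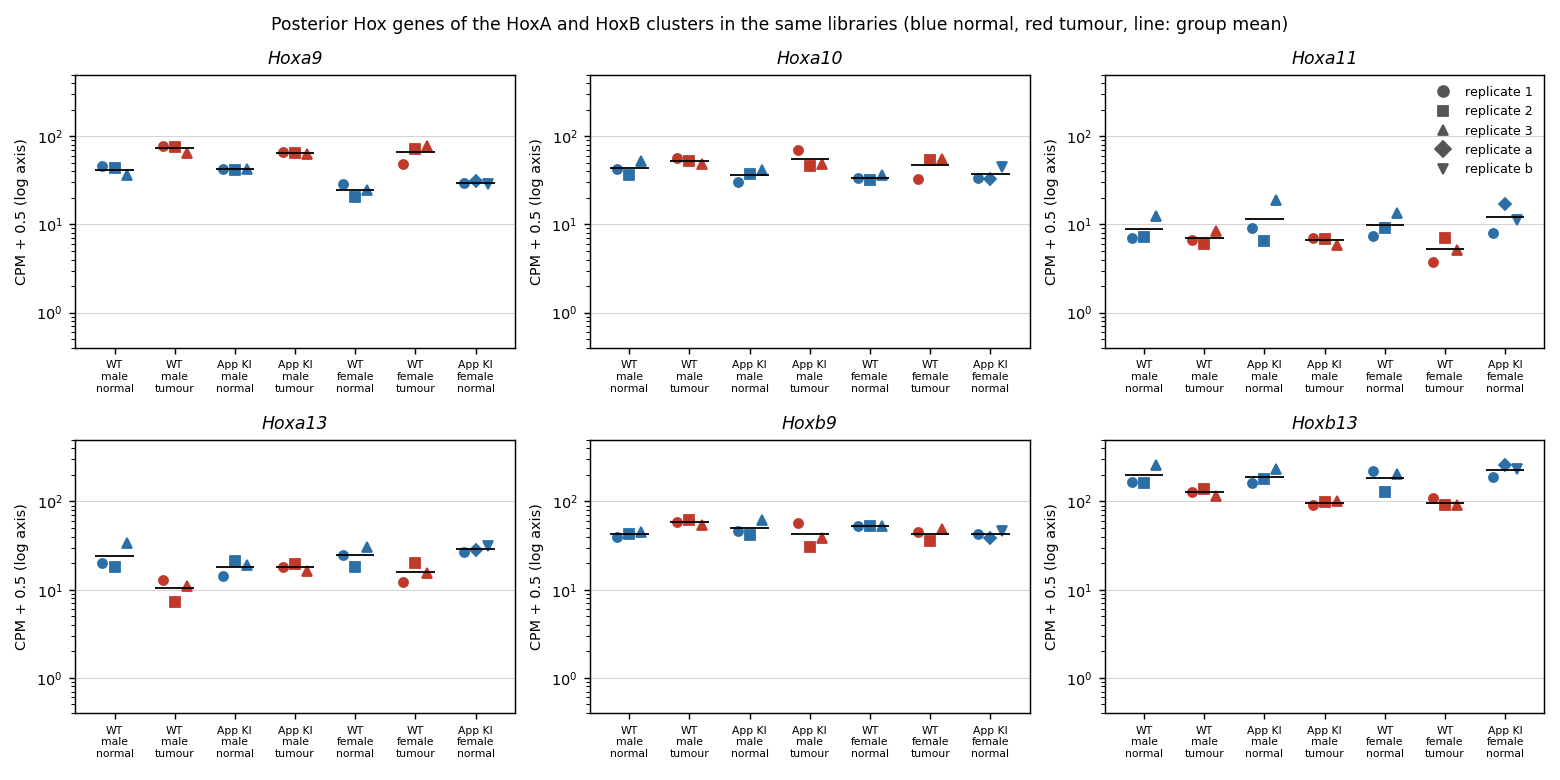
CPM + 0.5 of 6 posterior HoxA and HoxB genes is plotted on a log axis for the 21 libraries by group, in the layout and scale used for the HoxD genes. The first replicates of App knock-in male and wild-type female tumours lie close to the others of their groups, with Hoxb13 at 90.9 and 109 CPM.

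Across all 15936 tested genes, few others were as far apart in these libraries; this count was chosen after the values were seen. With 0.5 added to each CPM, 3 genes were at least 8-fold lower in wild-type female tumour replicate 1 than in both other libraries of its group, and they were Hoxd10, Hoxd11 and Hoxd13. In App knock-in male tumour replicate 1 there were 20 such genes, of which 5 were Hoxd9 to Hoxd13. The other 15 included Krt5, Krt13, Trp63 and Spink5, genes of stratified squamous epithelium. The genes common to both libraries were Hoxd10, Hoxd11 and Hoxd13, which is 100% of the first set and 15.0% of the second. None of the members reached this gap in any of the other 19 libraries.

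Marker values beside this result were as follows. The summed level of 4 markers of anal squamous epithelium was 41.4, 2574 and 302 CPM in App knock-in male tumours, lowest in replicate 1, and 103, 49.9 and 139 CPM in wild-type female tumours, where replicate 1 was in between. Fibroblast markers, 6 genes, summed to 2768, 4090 and 3354 CPM and to 1758, 2831 and 2690 CPM, lowest in replicate 1 of each group. Endothelial markers, 3 genes, summed to 121, 156 and 120 CPM and to 64.0, 120 and 132 CPM, lowest in replicate 1 of the wild-type females only. Epithelial markers summed to 6241, 6864 and 6077 CPM and to 4935, 5786 and 5666 CPM. Enteric neuron markers, 6 genes, summed to 79.8, 29.6 and 42.3 CPM and to 60.4, 46.3 and 65.8 CPM. Replicate 1 was highest in them for the App knock-in males only. Leukocyte markers, 4 genes, summed to 136, 64.5 and 133 CPM and to 124, 96.6 and 114 CPM, highest in replicate 1 of both groups. Enteric glia markers summed to 4.7, 5.09 and 8.91 CPM and to 3.67, 3.04 and 4.24 CPM. Mesothelial markers summed to 16.2, 19.1 and 12.9 CPM and to 21.1, 8.77 and 13.8 CPM. Enteroendocrine markers summed to 64.7, 65.8 and 50.6 CPM and to 23.0, 32.8 and 14.1 CPM. The total counts of the 2 low libraries were 14324996 and 7061894, inside the range of the other libraries. Wild-type female normal colon, with Hoxd13 at 162, 118 and 165 CPM, held the library with the lowest sum of the series for squamous, for fibroblast and for endothelial markers. Its squamous sums were 3.04, 4.04 and 2.32 CPM, its fibroblast sums 1369, 1126 and 1304 CPM and its endothelial sums 39.0, 48.4 and 65.8 CPM. App knock-in female normal replicate a, at 2.47 CPM, and wild-type male normal replicate 3, at 3.78 CPM, lay within those squamous sums. Wild-type female tumour replicate 1, at 64.0 CPM, lay within those endothelial sums. The part of RNA from any of these cell types in the HoxD values was not tested.

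The make-up of the HoxD counts differed in the same libraries, which restates the low counts from Hoxd13 to Hoxd9 as shares and is not a separate result. Hoxd13 took 43.6% to 69.3% of the counts of the 9 genes in the 21 libraries. Hoxd8 took 10.3% (Wilson 95% interval 6.74 to 15.3%) of 195 HoxD counts in App knock-in male tumour replicate 1 and 13.9% (6.08 to 28.7%) of 36 in wild-type female tumour replicate 1. In the other 19 libraries its share was at most 2.35%. These intervals cover counting error only.

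**Figure D5:**
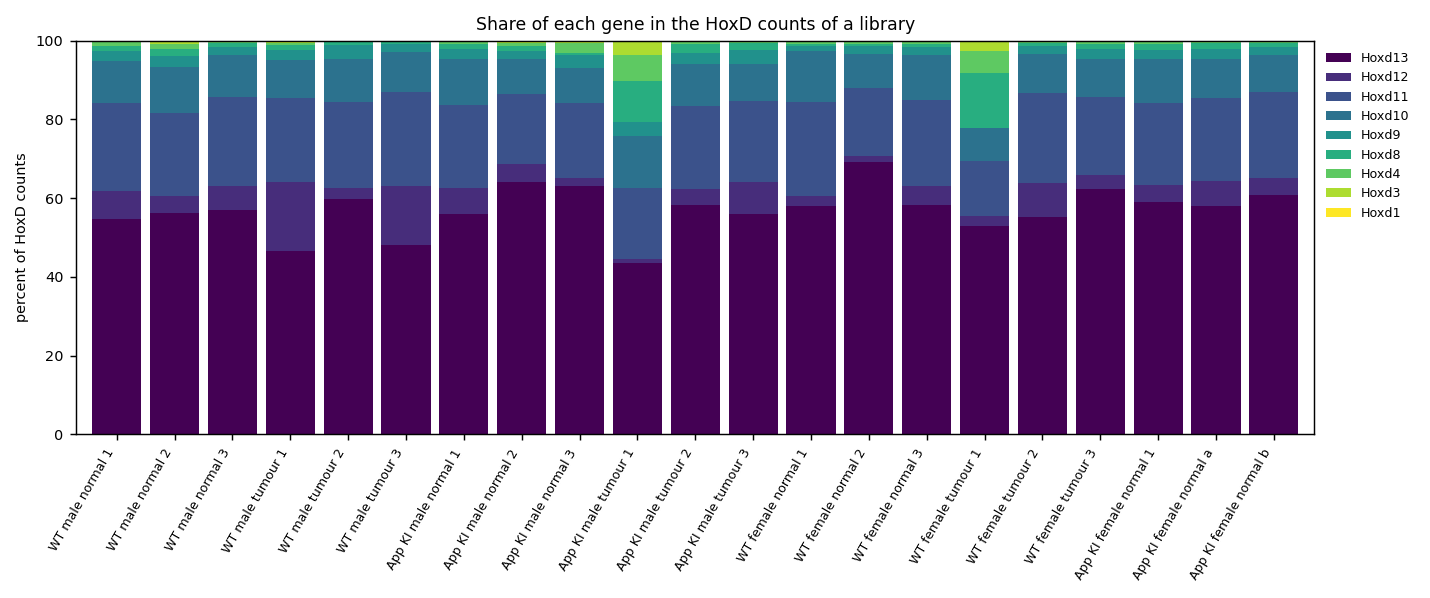
Stacked bars show the percentage of each library's HoxD counts that fell on each of the 9 genes, 1 bar for each of 21 libraries, from Hoxd13 at the bottom. Hoxd8 takes 10.3% and 13.9% in the first replicates of App knock-in male and wild-type female tumours and at most 2.35% in the other bars.

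Among the 19 libraries without these 2, Hoxd11, Hoxd10 and Hoxd9 still moved with Hoxd13, and Hoxd12 did so less than Hoxd8. As a description over 19 libraries that share tissue but differ in depth and group, the log2 CPM of Hoxd13 correlated with that of Hoxd11 and of Hoxd10 with r = 0.90 each, and with that of Hoxd9 with r = 0.76. The correlation was 0.64 with Evx2, 0.47 with Hoxd8, 0.39 with Hoxd12 and 0.15 with Hoxd4. Within the 12 normal libraries alone, r was 0.88 for Hoxd11, 0.81 for Hoxd10, 0.69 for Hoxd12 and 0.50 for Hoxd9. There it was 0.41 for Evx2, 0.41 for Hoxd8 and -0.6 for Hoxd4. Hoxd12 was thus closer to Hoxd13 in the 12 normal libraries than over the 19. Over all 21 libraries, the 2 low ones included, its r with Hoxd13 was 0.86.

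The genes most like each member in log2 CPM over the 21 libraries were ranked among 13397 genes outside the cluster. Evx2 came first for Hoxd9, Hoxd10, Hoxd11, Hoxd12 and Hoxd13, with r from 0.87 at Hoxd12 to 0.97 at Hoxd9. Dag1, which encodes the matrix receptor dystroglycan, was second for Hoxd13, with r = 0.79 over 21 libraries and 0.48 over 19 when the 2 farthest libraries were left out. For Evx2 and Hoxd13 the same omission gave 0.64, so in log2 CPM both relations rested in part on those 2 libraries. Hoxd8 had other neighbours, first Marcks, a membrane-bound actin regulator, with r = 0.86. Next for Hoxd8 came Dsp, with r = 0.85, and then Prrx1, a homeobox gene of mesenchymal cells, with r = 0.84. Without the 2 libraries farthest in Hoxd8, r was 0.76 for Marcks, 0.76 for Dsp and 0.78 for Prrx1. Those libraries were wild-type female normal replicate 2 and wild-type female tumour replicate 1. As deviations from the group means, Hoxd13 had r = 0.97 with Evx2 and 0.93 with Dag1. Without the 2 libraries farthest in Hoxd13 these were 0.92 and 0.83. By that measure Evx2 came first for Hoxd9, Hoxd10, Hoxd11 and Hoxd13, and was not among the 3 genes closest to Hoxd12.

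The anterior and central members had low levels with smaller differences. Hoxd8 had 3.73, 3.07 and 2.29 CPM in normal colon of wild-type males, 1.35, 0.557 and 2.17 CPM in wild-type female normal colon and 3.81, 3.71 and 2.68 CPM in App knock-in female normal colon. In tumours it had 1.94, 2.33 and 1.93 CPM in wild-type males, 1.36, 7.16 and 4.01 CPM in App knock-in males and 0.679, 2.81 and 1.20 CPM in wild-type females. App knock-in male normal colon had 2.9, 2.53 and 0.864 CPM. The wild-type female normal libraries were all below those of wild-type male and App knock-in female normal colon, and overlapped those of App knock-in male normal colon. Hoxd3 stayed at or under 1.35 CPM in all 21 libraries.

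Hoxd4, an anterior gene that responds to retinoic acid in the hindbrain, was the only member to pass the test. Its level was 2.69, 2.02 and 1.49 CPM in normal colon of wild-type males and 0.792, 0.291 and 0.645 CPM in their tumours, with no overlap, although the tumour values rest on 11, 1 and 7 counts. For wild-type females it was 1.31, 1.25 and 1.55 CPM in normal colon and 0.272, 0.936 and 0.652 CPM in tumours, again with no overlap. In App knock-in males it was 1.5, 1.84 and 3.98 CPM in normal colon and 0.885, 1.89 and 1.27 CPM in tumours, which do overlap. The log2 fold change in wild-type males was -1.69 (SE 0.48, adjusted p = 0.0103, edgeR quasi-likelihood test). It was -1.10 in wild-type females (SE 0.50, adjusted p = 0.0754) and -0.83 in App knock-in males (SE 0.42, adjusted p = 0.164), neither of which passed.

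Tests of every comparison between groups were read against the share of all genes that passed, and the members' choice used these contrasts, so the counts are descriptions. In wild-type males 35.7% of tested genes passed between tumour and normal colon and 19.3% were lower in tumours, beside 1 of 8 members, which was lower. In App knock-in males 20.4% of genes passed and 0 members, and in wild-type females 49.1% and 0 members. Between App knock-in and wild-type male tumours 14.5% of genes and 0 members passed, and between female and male wild-type tumours 0.86% and 0 members. For normal colon the shares were 0.0126% between male genotypes, 16% between female genotypes and 15.9% between the sexes, with 0 members in each. In the interactions of genotype and of sex with tumour, 1.51% and 1.12% of genes and 0 members passed. Where 0 members passed, 1 had an unadjusted p under 0.05 in the App knock-in male tumours (Hoxd3), the wild-type female tumours (Hoxd4), the male tumour genotype comparison (Hoxd4) and the female genotype comparison (Hoxd8), and 0 in the others. The share of all genes with an unadjusted p under 0.05 was 35.9%, 55.1%, 32.6% and 31.2% in those 4 comparisons.

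The 3 tumour comparisons of the posterior members had wide errors. For Hoxd13 the log2 fold change from normal colon to tumour was -0.18 (SE 0.94) in wild-type males, -0.31 (SE 0.94) in App knock-in males and -1.01 (SE 0.95) in wild-type females. For Hoxd11 it was -0.04 (SE 0.93), -0.11 (SE 0.93) and -0.89 (SE 0.95), and for Hoxd12 it was 0.87 (SE 1.14), 0.01 (SE 1.17) and 0.29 (SE 1.21). None of these passed the test, which does not show that the levels were equal. Without the 2 low libraries, the Hoxd13 change was 0.23 (SE 0.38) in App knock-in males and -0.43 (SE 0.39) in wild-type females. These libraries were left out after their Hoxd13 values were seen, so a higher change and a smaller error follow from the choice itself. In the same fit Hoxd11 was at 0.41 (SE 0.48) and -0.31 (SE 0.49), and 0 of the 8 tested members passed in either comparison, beside 17% and 44.2% of all genes in that fit.

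Groups without overlap in CPM were also counted over the 8 tested members. Hoxd4 was the 1 such member in wild-type male and in wild-type female tumours against normal colon, where 52.4% and 58.4% of all genes had none. It was also the 1 such member, higher, in App knock-in against wild-type male tumours, against 36.4% of genes. Hoxd3 was lower without overlap in App knock-in male tumours, against 33.6%. Hoxd8 was higher without overlap in App knock-in than in wild-type female normal colon, against 37.8%, and lower in wild-type female than in wild-type male normal colon, against 34.2%. No member was without overlap between male genotypes in normal colon or between female and male wild-type tumours, against 7.08% and 31.2% of genes. These 2 Hoxd8 comparisons share the wild-type female normal libraries, and neither passed (log2 fold change 1.33, SE 0.58, adjusted p = 0.125, and -1.17, SE 0.58, adjusted p = 0.169, edgeR).

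The posterior genes of the other clusters were tested in the same fits. Of all tested genes, 35.7%, 20.4% and 49.1% passed in wild-type male, App knock-in male and wild-type female tumours. Of 6 tested posterior HoxA and HoxB genes, 1 rose and 2 fell in wild-type male tumours, 2 rose and 1 fell in App knock-in male tumours, and 1 rose and 1 fell in wild-type female tumours. Hoxa9 rose by a log2 fold change of 0.80 (SE 0.15), 0.62 (SE 0.15) and 1.43 (SE 0.15), and its libraries did not overlap between tumour and normal colon in any of these groups. Hoxb13 changed by -0.64 (SE 0.20), -0.98 (SE 0.20) and -0.95 (SE 0.20), from 163 CPM or more in all 6 male normal libraries to 137 CPM or less in male tumours. The Hoxb13 call in wild-type males was lost without normal replicate 3 (-0.39, adjusted p = 0.157), tumour replicate 1 (-0.65, adjusted p = 0.0501) or tumour replicate 3 (-0.58, adjusted p = 0.07). Hoxa13 fell by 1.19 (SE 0.26) in wild-type males, with an adjusted p of 0.00206 in edgeR.

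Regulators of Hox clusters were read from lists chosen with earlier results known. Of 22 Polycomb and trithorax genes, 7 rose and 2 fell in wild-type male tumours, 7 rose and 2 fell in App knock-in male tumours, and 10 rose and 2 fell in wild-type female tumours. Of all tested genes, 35.7%, 20.4% and 49.1% passed in either direction in these comparisons. The list medians were 0.27, 0.09 and 0.43 in log2 fold change, beside 0.01 over all tested genes. Cbx2, a subunit of Polycomb repressive complex PRC1, rose by 1.34 (SE 0.27) in wild-type males and 2.24 (SE 0.29) in wild-type females. Ezh2, the histone methyltransferase of PRC2, rose by 0.79 (SE 0.12) in App knock-in males, and by 0.90 (SE 0.12) and 1.27 (SE 0.12) in wild-type males and females, values chosen after they were seen. Phf19, a PRC2 accessory protein, fell by 1.60 (SE 0.23) in wild-type females.

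Of 17 tested genes for signals and caudal factors that act on Hox clusters, 2 rose and 5 fell in wild-type male tumours, 1 rose and 2 fell in App knock-in male tumours, and 9 rose and 3 fell in wild-type female tumours. Beside these counts stand 35.7%, 20.4% and 49.1% of all tested genes that passed in either direction. The list medians were 0.52, -0.22 and 0.53, so in wild-type males the list median was above 0 although more of its genes fell than rose past the test. Cdx1, a caudal homeobox factor of intestinal epithelium, fell by 0.84 (SE 0.18) in App knock-in males, and it also fell by 1.60 (SE 0.18) and 1.75 (SE 0.18) in wild-type males and females, values chosen after they were seen. Gdf11, a TGF-beta family ligand that sets the trunk-to-tail switch of Hox expression, rose by 4.96 (SE 0.78) in wild-type females, from 1.09 CPM ± 0.614 to 39.1 ± 4.87 (SD, n = 3). In wild-type males its rise was 1.98 (SE 0.62), a call lost with the replicate block. Wild-type female normal colon was already lower in Gdf11 than wild-type male normal colon (log2 fold change -3.21, SE 0.76, adjusted p = 0.0109, edgeR). Rarb, a retinoic acid receptor, rose by 1.78 (SE 0.36) in wild-type males. Smooth muscle markers summed lower in the same tumour groups, as given above, and their part in the list values was not tested.

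Of 9 Hox cofactor genes, 1 rose and 2 fell in wild-type male tumours and 0 changed in either direction in App knock-in male and wild-type female tumours. Pbx3, a partner that helps Hox proteins bind DNA, fell by 0.78 (SE 0.21) in wild-type males. Of 14 tested anterior and central genes of the other clusters, 0 rose and 3 fell in wild-type males, 0 changed in App knock-in males, and 1 rose and 1 fell in wild-type females. The shares of all tested genes beside both lists were 35.7%, 20.4% and 49.1% in wild-type males, App knock-in males and wild-type females. Hoxa4 fell by 0.97 (SE 0.30, adjusted p = 0.0161, edgeR) in the wild-type males, the group in which Hoxd4, of the same paralogue group, also fell. The others that fell there were of another paralogue group, with changes of -2.17 (SE 0.64) for Hoxb2 and -0.70 (SE 0.24) for Hoxa2. The medians of the 14 genes were -0.57, -0.09 and -0.04 in log2 fold change, and that of the 8 tested HoxD members -0.17, -0.14 and -0.95. Without the 2 low libraries the HoxD median was 0.38 and -0.37 in the App knock-in male and wild-type female comparisons. That omission was chosen by the Hoxd13 values, so higher medians follow in part from the choice.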

How the data were processed

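Total RNA from 21 colon libraries was cleared of ribosomal RNA by an RNase H step, copied into cDNA from random hexamers and run on a NovaSeq, per the labels' protocols. The deposited table holds raw counts of 24062 genes; Trimmomatic, HISAT2, featureCounts and DESeq2 are named, without versions or parameters, in the submitters' processing notes. Nothing was done to these counts before the fit. In its header 2 columns of the App knock-in female normal group carry the same name and were used as unnumbered replicates; 0 columns of per-sample values were left out. The authors' table of comparisons was not used here.

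The test was edgeR's quasi-likelihood test (edgeR 4.0.16, R 4.3.3, TMM, filterByExpr by group, robust, 21 libraries, 1 coefficient for each group), two-sided, with Benjamini-Hochberg adjustment over 15936 genes and a threshold of 0.05. Log2 CPM used a prior count of 2. Counting intervals are 95%, and 3 counts served as the floor. Library totals of 3414123 to 26174008 set the depth. The test was checked on simulated counts. Python 3.11.15 with scipy 1.17.1, DESeq2 1.42.0 and limma 3.58.1 were also used.

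The members and the gene lists were chosen with earlier results of these data known. Named genes are the members, the 3 genes most like each in log2 CPM among genes with a mean of at least 50 counts, and for each list up to 3 called genes of largest change; others are said to be chosen after their values were seen. Same-numbered libraries deviated together in wild-type male tumour and normal colon (r = 0.17, 0.17 and 0.21 for replicates 1 to 3, with numbers from the library names) and not in every pair of the other comparisons.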

Additional observations from a re-analysis of the deposited data

Results flagged for a closer look

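A pair of genes of the regulator lists were flagged because the tumour change differed between groups in a test of the difference itself, and no HoxD member was flagged so. Aldh1a1, an enzyme that makes retinoic acid, differed between genotypes in males, with a log2 interaction of 2.77 (SE 0.52, adjusted p = 0.0406, edgeR). It fell from 24.0 CPM ± 14.7 to 3.12 ± 0.584 (SD, n = 3) in wild-type males and had 16.1 CPM ± 4.01 and 14.4 ± 3.41 in App knock-in males. That call was lost when only the compared groups were fitted, with the replicate block or with the library-number covariate (adjusted p = 0.111, 0.0548 and 0.0576). It was also lost in 7 of 13 fits that left libraries out, namely wild-type male normal replicate 3 (2.20, adjusted p = 0.12), wild-type male tumour replicates 1, 2 and 3 (2.59, 2.74 and 2.96), App knock-in male normal replicates 1 and 3 (2.77 and 2.59) and App knock-in male tumour replicate 2 (2.55). Cbx6, a Polycomb PRC1 subunit, differed between wild-type males and females, with a log2 interaction of 1.58 (SE 0.26, adjusted p = 0.00935, edgeR). It had 41.6 CPM ± 9.06 in normal colon and 81.9 ± 5.65 in tumours of males, and 10.9 ± 1.10 and 64.4 ± 6.71 in females (SD, n = 3). That call was kept in 13 of 13 fits that left libraries out and lost with the library-number covariate (1.47, adjusted p = 0.059).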

How the results depend on the processing

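The count of HoxD members past the threshold was recomputed for all 10 comparisons under 9 other settings that kept every library (8 where the replicate block could not be fitted), and with libraries left out. It was the same everywhere except in the following. With a mean of at least 50 counts in a group the count in wild-type male tumours was 0 in place of 1, since Hoxd4 was not among the 6 members tested. With limma voom it was 1 (Hoxd8) in App knock-in against wild-type female normal colon and 2 (Hoxd4 and Hoxd8) in wild-type female against male normal colon, each in place of 0. Leaving out 1 library gave 0 to 2 members in wild-type female tumours, where omission of tumour replicate 2 called Hoxd4 (-1.50, adjusted p = 0.0453, edgeR) and Hoxd10 (-2.58, adjusted p = 0.0464). With the replicate number as a block, 1 member passed in wild-type male tumours (Hoxd4, -1.72, adjusted p = 0.0202, edgeR) and 0 in the other comparisons fitted, with 7 members tested, so the block changed no call of a member. No paired analysis was possible for the female genotype comparison because its groups share fewer than 2 usable replicate numbers. Over all other settings and omissions in wild-type male tumours the adjusted p of Hoxd4 ran from 0.000753 to 0.0423. Counts over all genes moved by more than 1.5 times in 9 comparisons, in wild-type male tumours only when a library was left out. With only the compared groups fitted they were 724 against 3246 in App knock-in male tumours, 1438 against 2315 between male tumours, 1623 against 2534 between the sexes in normal colon and 1166 against 137 between wild-type tumours; limma voom gave 4457 against 2545 between female genotypes, 5317 between the sexes and 2916 between wild-type tumours. The genotype interaction had 240 calls, 0 with the block, 2 with the library-number covariate and 1326 with DESeq2, and the sex interaction 179, 73, 23 and 577. In male normal colon there were 2 calls, 6 with DESeq2. Without 1 library at a time the all-gene counts ran from 3659 to 5373 in wild-type male tumours (5697 with all), 1392 to 2994 in App knock-in male tumours, 429 to 2252 between male tumours, 1022 to 2745 between female genotypes, 1037 to 2799 between the sexes in normal colon 12 to 116 between wild-type tumours, 0 to 2104 for the genotype interaction and 31 to 544 for the sex interaction. Of 1289 recomputed fold changes of members, 33 moved by more than the SD between replicates. A reversal was counted only for a called member, that is, Hoxd4 in wild-type male tumours, and 0 of its refits reversed. Members that were not called could change sign uncounted, as Hoxd13 did in App knock-in male tumours without the 2 low libraries. Of 66 calls of genes from the lists, 45 held under every setting that kept all libraries, and 0 reversed. In those settings 524 of 575 refits kept the call, and 849 of 1014 did when fits with libraries left out were included. Depth limits the anterior members, since 3 counts are 0.873 CPM on the TMM scale in the smallest library, above the Hoxd4 value there.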

Other observations

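Wild-type female normal colon differed from both other normal groups it was compared with in genes of the regulator lists. Cbx6 had 10.9 CPM ± 1.10 (SD, n = 3) there, 41.6 ± 9.06 in wild-type male and 35.0 ± 4.55 in App knock-in female normal colon. Its log2 fold changes were -1.93 (SE 0.19) for wild-type females against wild-type males and 1.67 (SE 0.19) for App knock-in against wild-type females, comparisons that share the wild-type female libraries. Gli2, a transcription factor of Hedgehog signalling, gave -1.68 (SE 0.30) and 2.06 (SE 0.31). Smooth muscle markers summed to 2868, 1971 and 4572 CPM in wild-type female, 7254, 2836 and 9653 CPM in wild-type male and 6826, 9639 and 7282 CPM in App knock-in female normal colon, and their part in these values was not tested.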
